A study of Mus musculus with 26 samples.

Results

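The genes that set plasminogen activation were examined: the activators Plau and Plat, the urokinase receptor Plaur, and the serpins Serpine2 and Serpinb2. They were looked up by symbol and mapped to the Ensembl gene identifiers of the deposited files. All 5 were measured in whole tumours, among 16322 genes, and 4 of the 5 in myeloid cells sorted from spleen, among 14131 genes. Plat was not analysed in sorted cells. The mice were KPC mice, a model of pancreatic ductal adenocarcinoma driven in its usual form by oncogenic alleles switched on in the pancreas by a Pdx1-driven Cre; the labels name the strain only. They had received GS9820, an inhibitor of the p110δ subunit of phosphoinositide 3-kinase, for 14 days, or vehicle, for which no day is labelled. The groups were 5 GS9820 and 7 vehicle tumours, 4 GS9820 and 3 vehicle libraries of splenic monocytes, and 4 GS9820 and 3 vehicle libraries of splenic polymorphonuclear cells (PMN). All groups carried the KPC background, and neither age nor a tumour-free animal is labelled. The labels do not say that each library came from its own animal, so p-values measure the spread between these libraries.

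Urokinase, encoded by Plau, and tissue plasminogen activator, encoded by Plat, are serine proteases that cleave the circulating zymogen plasminogen to plasmin, which dissolves fibrin and degrades matrix proteins. The receptor uPAR, encoded by Plaur, is a lipid-anchored surface protein that binds urokinase and concentrates its activity at the cell surface, and it is known from neutrophils, monocytes and invading tumour cells. Serpine2 (protease nexin 1) is a secreted and matrix-bound inhibitor of thrombin, urokinase and plasmin, and Serpinb2 (PAI-2) is a largely intracellular serpin that inhibits urokinase and is strongly inducible in macrophages. In pancreatic carcinoma, urokinase and its receptor are known as markers of invasive disease.

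On mouse build GRCm38 with the GENCODE M21 annotation, Plau (ENSMUSG00000021822) spans chr14:20836660-20843385 on the plus strand, and Plat (ENSMUSG00000031538) spans chr8:22757727-22782844 on the plus strand. Plaur (ENSMUSG00000046223) spans chr7:24462484-24475968 on the plus strand. Serpine2 (ENSMUSG00000026249) spans chr1:79794197-79861180 on the minus strand. Serpinb2 (ENSMUSG00000062345) spans chr1:107511423-107535478 on the plus strand, inside the clade B serpin cluster. Its 3′ end shares 6476 bases and the strand with Serpinb10 (ENSMUSG00000092572, chr1:107529003-107549271), annotated as a polymorphic pseudogene, so reads from the shared stretch could have been counted for either gene. Serpinb10 was measured in sorted cells and was not analysed in tumours.

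Promoters of the receptor and of Serpinb2 are printed because these are the members with a called difference in the comparisons below. Both were taken from RefSeq on GRCm38.p6 and run 5′ to 3′ over the 250 bases before and 50 bases from the annotated start, Plaur at chr7:24462233-24462532 and the first of the Serpinb2 starts at chr1:107511173-107511472, both on the plus strand. Capitals mark matches to the searched motifs TGANTCA (the letters of an AP-1 site), TGACNTCA (the letters of a CRE-like site) and TATAAA.
Plaur: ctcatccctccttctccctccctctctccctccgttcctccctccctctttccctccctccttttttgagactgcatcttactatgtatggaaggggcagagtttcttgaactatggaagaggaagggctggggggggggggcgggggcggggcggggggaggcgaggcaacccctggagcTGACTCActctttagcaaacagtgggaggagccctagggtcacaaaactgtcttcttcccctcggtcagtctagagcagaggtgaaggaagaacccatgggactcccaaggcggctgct
Serpinb2: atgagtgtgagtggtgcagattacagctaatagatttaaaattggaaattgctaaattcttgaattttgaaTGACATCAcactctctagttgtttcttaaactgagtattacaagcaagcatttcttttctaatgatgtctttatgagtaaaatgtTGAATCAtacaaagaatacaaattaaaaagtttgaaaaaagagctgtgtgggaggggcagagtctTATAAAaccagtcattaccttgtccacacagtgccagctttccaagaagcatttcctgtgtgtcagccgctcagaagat
The Plaur window holds TGACTCA 69 bases before the start and neither other motif. The Serpinb2 window holds TGACATCA 179 bases, TGAATCA 94 bases and TATAAA 29 bases before its start. Searched on both strands, and with no overlap between the matches, TGANTCA occurs in 7.81% of 32851 RefSeq mouse promoters of this length, TGACNTCA in 8.83% and TATAAA in 13.62%. Serpine2, whose window is 77.7% G and C against 59.3% for Plaur and 35.3% for Serpinb2, holds none of the motifs. The matches describe letters only, and no binding was measured.

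Deposited values were log2 values that the authors name log2 RPKM, and each set of libraries shared nearly one distribution, with a median of 4.80 in every tumour and about 4.56 in sorted cells. The sequencing depth is therefore unknown and the number of reads behind a value cannot be given. Tumour and sorted-cell tables had been normalized separately, so levels in them are set side by side without a test. Correlations between libraries ran between 0.630 and 0.945 in tumours and between 0.784 and 0.984 in sorted cells. Differences below are GS9820 minus vehicle, or monocytes minus PMN, in log2 units, from limma with Benjamini-Hochberg adjustment over all genes tested; a gene was called at an adjusted p under 0.05.

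By level, the members held very different places in the 2 tables. Averaged over the 12 tumours, Plau lay above 94.0% of genes, Plat above 92.5%, Plaur above 81.9%, Serpine2 above 78.6% and Serpinb2 above only 1.1%. Averaged over the 14 sorted-cell libraries, Plaur lay above 95.8% of genes, Plau above 72.7%, Serpinb2 above 48.4% and Serpine2 above 21.3%. Thus Serpinb2 was near the bottom in tumours and near the middle in sorted myeloid cells, and Serpine2 was high in tumours and low in sorted cells. These places rest on values scaled by gene length according to their name.

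In tumours, Serpinb2, a gene of very low level there, fell with GS9820 and was the member with a called difference, a call that did not hold in every setting. The other 3 of the 4 members with negative differences (Plau, Plat and Plaur) had values 1.06 to 1.48 log2 units lower on average in GS9820 tumours and did not pass the test, and Serpine2 differed by 0.13. Of all 16296 genes tested, 2.20% were called, 1.33% as lower and 0.878% as higher, 24.4% had an unadjusted p under 0.05, and the median difference was -0.06. All 5 members passed the filter on low values, but Serpinb2 passed through the vehicle tumours alone, since its values were at or above 0 in 7 of 12 tumours. It is therefore no support for the members as a group; fitted with no filter at all, its difference was the same (limma, adjusted p = 0.026). In whole tumours, fewer cells of a type and less RNA per cell cannot be told apart.

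**Figure D1:**
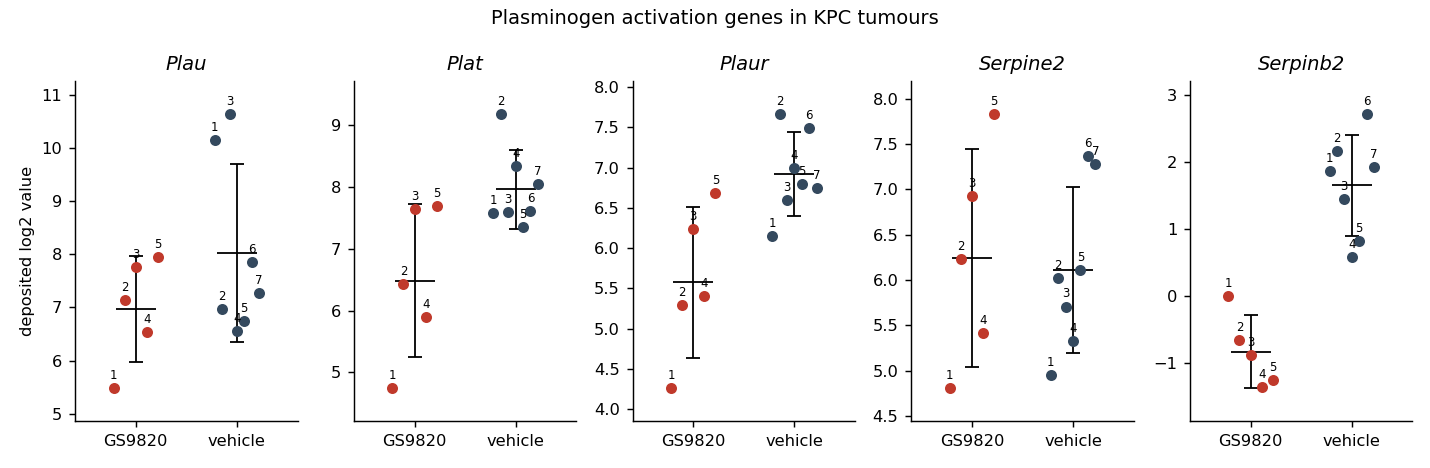
Deposited log2 values of the 5 members in each tumour, GS9820 (5 tumours) left of vehicle (7 tumours), with the mean and SD of each group. Serpinb2 lies below 0 in every GS9820 tumour and above 0 in every vehicle tumour, while the groups overlap for the other members.

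Among the activators, Plau had deposited log2 values of 5.48, 7.13, 7.75, 6.53 and 7.95 in GS9820 tumours 1 to 5, against a lowest of 6.56, a median of 7.28 and a highest of 10.64 in vehicle tumours. Vehicle tumours 1 and 3 stood above the rest at 10.14 and 10.64, and the other 5 vehicle tumours lay within the range of the GS9820 tumours. The means were 6.97 ± 1.0 in GS9820 tumours and 8.03 ± 1.67 in vehicle tumours (SD, n = 5 and 7), a difference of -1.06 ± 0.75 (SE) with a 95% interval of -2.68 to 0.56 (limma, adjusted p = 0.403). Without vehicle tumour 3 the difference was -0.62.

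Plat, the activator best known for fibrin-bound plasminogen in vessels, had values of 4.75, 6.43, 7.64, 5.90 and 7.69 in GS9820 tumours, against a lowest of 7.36, a median of 7.61 and a highest of 9.18 in vehicle tumours. GS9820 tumours 1, 2 and 4 lay below every vehicle tumour, and GS9820 tumours 3 and 5 lay near the vehicle median. The means were 6.48 ± 1.24 in GS9820 tumours and 7.96 ± 0.63 in vehicle tumours (SD). The difference of -1.48 ± 0.49 (SE), with an interval of -2.53 to -0.42, did not pass (limma, unadjusted p = 0.00976, adjusted p = 0.101).

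For the receptor Plaur, values were 4.26, 5.30, 6.24, 5.40 and 6.69 in GS9820 tumours, against a lowest of 6.15, a median of 6.80 and a highest of 7.67 in vehicle tumours. The same GS9820 tumours 1, 2 and 4 lay below every vehicle tumour, and the groups overlapped through GS9820 tumours 3 and 5. The means were 5.58 ± 0.94 in GS9820 tumours and 6.92 ± 0.52 in vehicle tumours (SD). The difference was -1.34 ± 0.38 (SE), with an interval of -2.17 to -0.52 (limma, unadjusted p = 0.0038, adjusted p = 0.0727). With array quality weights, which weight libraries by their fit, Plaur differed by -1.18 (adjusted p = 0.0323) and Plat by -1.34 (adjusted p = 0.049), so both calls depend on the weighting of libraries.

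The secreted inhibitor Serpine2 had values of 4.81, 6.23, 6.93, 5.41 and 7.83 in GS9820 tumours, against a lowest of 4.96, a median of 6.02 and a highest of 7.36 in vehicle tumours. The groups covered nearly the same range. The means were 6.24 ± 1.20 in GS9820 tumours and 6.11 ± 0.92 in vehicle tumours (SD), and the difference of 0.13 ± 0.54 (SE) had an interval of -1.04 to 1.31 (limma, adjusted p = 0.9). That interval still holds a change of about 1 log2 unit either way.

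Serpinb2 had values of -0.0038, -0.66, -0.88, -1.36 and -1.25 in GS9820 tumours, against 0.58 at the lowest, 1.86 at the median and 2.71 at the highest in vehicle tumours. Every GS9820 tumour lay below every vehicle tumour, a pattern shown by 1.86% of all genes. The means were -0.83 ± 0.54 in GS9820 tumours and 1.65 ± 0.75 in vehicle tumours (SD, n = 5 and 7). Serpinb2 fell by 2.48 on the log2 scale with an SE of 0.46, 5.57-fold on these values, with an interval of -3.48 to -1.48 (limma, adjusted p = 0.0254). All of its tumour values are low, which limits how well the size is known: on the scale of log2 of the value plus 1 it fell by 1.41 (adjusted p = 0.0338). Serpinb2 passed the filter on low values through the vehicle tumours alone, so neither the lack of overlap nor the call supports a change of the members as a group.

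The call for Serpinb2 was not firm. With the replicate number as a block it differed by -2.21 (limma, adjusted p = 0.0819), and the stricter filter, a value of at least 2 in 5 tumours, removed the gene. The call stayed under 0.05 in 7 of 12 fits that left out 1 tumour, and the difference stayed between -2.68 and -2.30. Adjusted p was 0.0779 without GS9820 tumour 4, 0.0664 without GS9820 tumour 2, 0.0523 without GS9820 tumour 5, 0.0567 without vehicle tumour 2 and 0.0506 without vehicle tumour 7. Without GS9820 tumour 4, 0 of all genes were called by limma, so the loss there was not particular to Serpinb2.

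Marker genes of other cells differed on average between GS9820 and vehicle tumours in several lists, but the ranges overlapped in each. Calls were limited to islet, endothelial and fibroblast genes, while 0.878% of all genes were called as higher. Without GS9820 tumour 4, 0 of all genes were called. Islet markers averaged 4.85 to 8.27 in GS9820 tumours and -0.52 to 6.34 in vehicle tumours over 10 genes, of which 4 rose. Neutrophil markers averaged 1.59 to 4.13 in GS9820 tumours and 2.92 to 6.42 in vehicle tumours over the 11 of 13 measured, and all 11 differences were below 0 with none called (limma; 3 at an unadjusted p under 0.05). Monocyte markers averaged 6.04 to 7.07 in GS9820 tumours and 5.39 to 7.39 in vehicle tumours. Macrophage markers averaged 5.52 to 7.26 in GS9820 tumours and 5.76 to 7.95 in vehicle tumours. Each of these lists had 8 of 10 differences above 0 and none called (limma, 2 and 0 at an unadjusted p under 0.05). Acinar markers averaged 7.20 to 11.61 in GS9820 tumours and 3.52 to 11.66 in vehicle tumours, with 12 of 12 differences above 0 and none called (1 at an unadjusted p under 0.05). Hepatocyte markers stood above 5 on average in GS9820 tumours 1 and 3, at 5.80 and 11.84, and in vehicle tumour 4, at 6.04. Without these 3 tumours the Serpinb2 difference was -2.91 (adjusted p = 0.0249), that of Plaur -1.11 (adjusted p = 0.168) and that of Plat -1.22 (adjusted p = 0.185). Endothelial markers averaged 4.81 to 5.68 in GS9820 tumours and 4.31 to 5.31 in vehicle tumours, with 2 of 10 risen, and fibroblast markers 7.19 to 9.10 in GS9820 tumours and 6.94 to 8.56 in vehicle tumours, with 1 of 10 risen. Adipocyte markers, at 0.45 to 6.5 in GS9820 tumours and 0.07 to 3.68 in vehicle tumours, and T cell markers, at 1.48 to 4.96 in GS9820 tumours and -0.45 to 3.68 in vehicle tumours, had 7 of 7 differences above 0 each and none called (limma; 6 and 2 at an unadjusted p under 0.05). The part of these markers in the member differences was not tested. Carcinoma and duct epithelium markers were at 7.42 to 9.37 in GS9820 tumours and 4.44 to 9.46 in vehicle tumours, and vehicle tumour 1, the lowest, was one of the pair with high Plau.

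**Figure D2:**
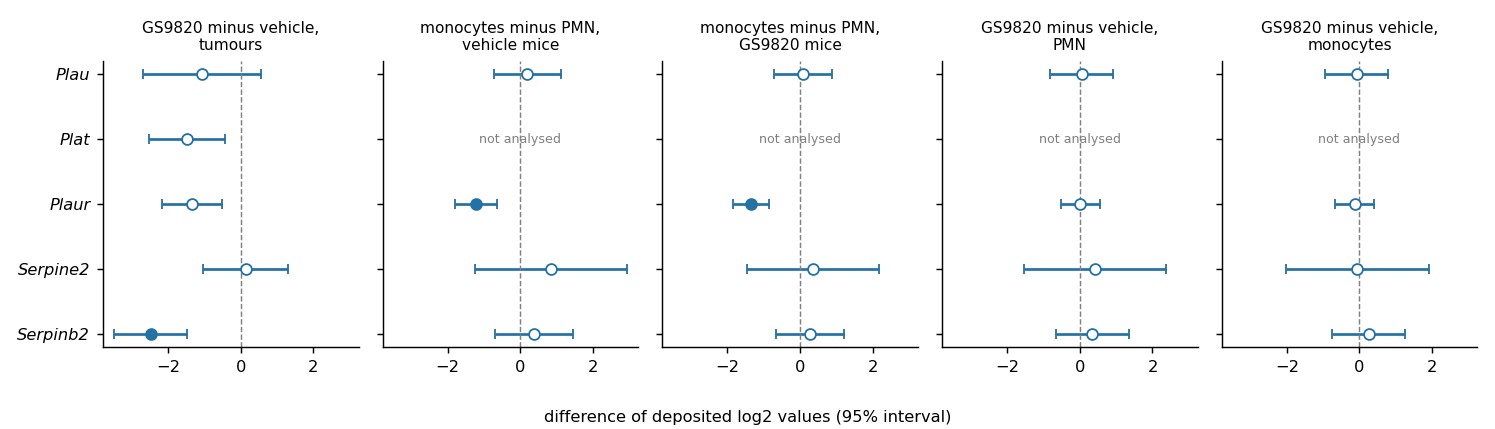
Differences of deposited log2 values with 95% intervals for each member, in a panel each for GS9820 minus vehicle in tumours, PMN and monocytes and for monocytes minus PMN in vehicle and GS9820 mice, filled where the adjusted p was under 0.05. The tumour interval of Serpinb2 lies wholly below -1, and the intervals of Plaur in both comparisons of monocytes with PMN lie below 0.

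The other genes of the pathway were 47 in number, of which 39 could be tested in tumours. Of these, 3 fell and 0 rose with GS9820, with 23 differences below 0 and 16 above and a median of -0.14. Over all genes 1.33% were called as lower and 0.878% as higher, and the median was -0.06, also below 0. The gene lists were chosen with earlier results of these data known, so this count of calls cannot support a shift of the pathway. Of the 3 calls, 0 held in every fit that left out 1 tumour. The 3 that fell were Eno1, Anxa2 and Itgb1. Eno1 and Anxa2 belong to the cell-surface plasminogen receptors, a list of 4 tested genes, and Itgb1 is the β1 integrin chain, a lateral partner of uPAR.

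Eno1 encodes α-enolase, a glycolytic enzyme that also binds plasminogen at the cell surface. It had values of 7.22 to 8.34 in GS9820 tumours (median 7.44) and 8.26 to 9.68 in vehicle tumours (median 8.83), and it fell by 1.32 ± 0.28 (SE; limma, adjusted p = 0.0351). Its groups touched, with GS9820 tumour 3 just above the lowest vehicle tumour, and since Eno1 has close copies in the genome its reads may have been split. Anxa2 encodes annexin A2, which binds plasminogen and tissue plasminogen activator. It had 8.59 to 9.53 in GS9820 tumours (median 9.15) and 9.55 to 10.97 in vehicle tumours (median 10.20), without overlap, and fell by 1.12 ± 0.27 (adjusted p = 0.0493). Itgb1 had 8.18 to 9.57 in GS9820 tumours (median 8.95) and 9.25 to 10.58 in vehicle tumours (median 10.08), and fell by 1.23 ± 0.29 (adjusted p = 0.045). Each of these calls was lost in most fits without 1 tumour: Eno1 passed in 4 of 12, Anxa2 in 3 and Itgb1 in 2, with adjusted p as high as 0.11, 0.136 and 0.132, each highest without GS9820 tumour 4.

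Of the remaining plasminogen receptors, S100a10, the partner chain of annexin A2, differed by -0.69 and Plgrkt by 0.55, both without a call. Among 16 surface partners and clearance receptors tested, 10 differences were below 0 and 6 above, and Itgb1 alone was called. The lipoprotein receptor Vldlr, which clears protease-serpin complexes, differed by -1.44 (limma, adjusted p = 0.0564) and the formyl peptide receptor Fpr2 by -1.74 (adjusted p = 0.0721). The largest difference of this list was that of vitronectin, Vtn, at 2.81 (adjusted p = 0.138). None of 6 other inhibitors was called (limma; 3 at an unadjusted p under 0.05), and they differed in direction. Serping1, the C1 inhibitor, differed by 2.16 ± 0.80 (adjusted p = 0.129).

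None of 4 proteases that can cleave pro-urokinase was called (limma; 2 at an unadjusted p under 0.05), with St14 (matriptase) at 1.96 (adjusted p = 0.131) and Hpn (hepsin) at 1.39 (adjusted p = 0.178). None of 9 genes of the fibrin crosslinker and plasmin-activated substrates was called (limma, 0 at an unadjusted p under 0.05). Of these, the collagenases Mmp14 and Mmp13 differed by -0.83 (adjusted p = 0.229) and -1.42 (adjusted p = 0.265). The fibrinogen genes Fga, Fgb and Fgg and the plasminogen gene Plg were not analysed in tumours or in sorted cells. Among relatives of the members no gene was called. Of 7 other clade B serpins 0 were called (1 at an unadjusted p under 0.05), with a median difference of 0.12 and a lowest of -0.38. Serpinb1a, a neutrophil protease inhibitor, differed by 1.36 (adjusted p = 0.203). Of 3 Ly6 relatives of uPAR 0 were called (1 at an unadjusted p under 0.05), with Ly6k at 1.92 (adjusted p = 0.0968) and a median of 0.25.

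**Figure D3:**
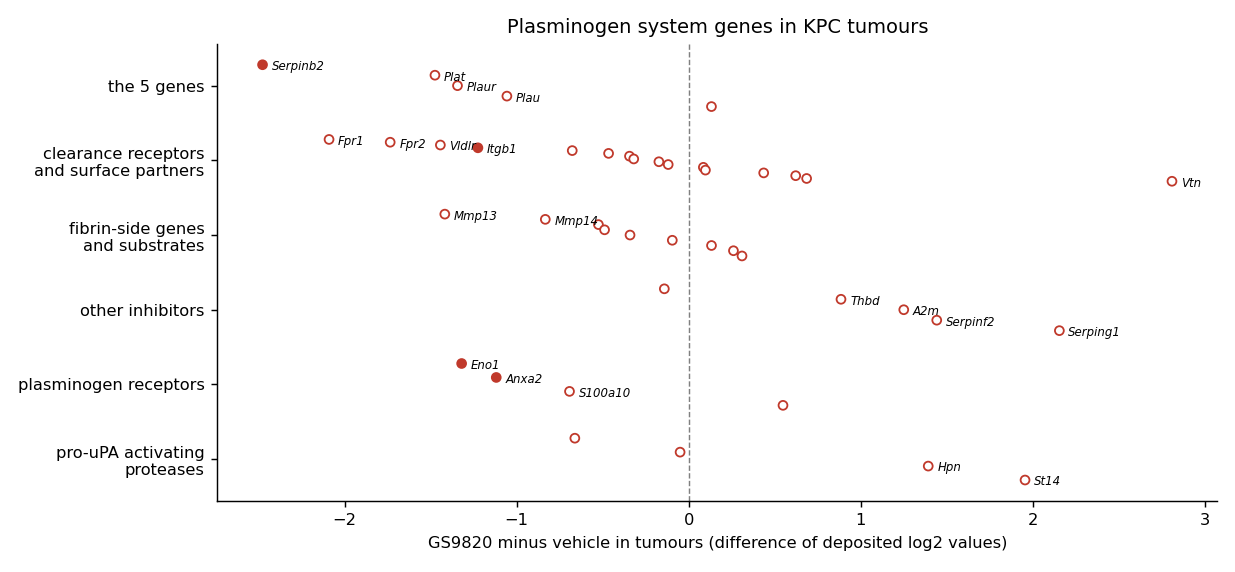
Differences of deposited log2 values, GS9820 minus vehicle in tumours, of the 5 members and of the other pathway genes tested except 1 inhibitor, by list, each point 1 gene and filled where the adjusted p was under 0.05. Filled points are Serpinb2, Itgb1, Eno1 and Anxa2, all below 0; genes without a call lie on both sides.

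Among the members, Plaur and Plat followed each other across tumours. Over all 12 tumours Plat was the gene most like Plaur, with a Pearson r of 0.923, a Spearman rho of 0.783 and an r of 0.815 without GS9820 tumours 1 and 2, the farthest from the Plaur median. Within the 7 vehicle tumours alone r was 0.608. Within the 5 GS9820 tumours it was 0.970, but there Plau, Plat, Plaur and Serpine2 all followed each other, with r between 0.948 and 0.991. Serpinb2 ran the other way in these 5 tumours, with r between -0.762 and -0.562. The likeness of Plaur and Plat was thus not particular to this pair in GS9820 tumours. These correlations describe 12 tumours of both groups that share their composition and the treatment difference. Next to Plaur came Tnfrsf23 (r = 0.922), a decoy receptor of the TNF family, and Ttc30a1 (r = 0.914), an intraflagellar transport gene. Nearest to Plat were Ncs1 (r = 0.963), a calcium sensor, Myof (r = 0.959), a membrane repair protein, and Slc39a10 (r = 0.943), a zinc transporter.

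For Plau the correlations turned on vehicle tumours 1 and 3. Over all 12 tumours its r was 0.286 with Plaur, 0.348 with Plat and 0.0512 with Serpine2, and without that pair it was 0.601 with Plaur, 0.575 with Plat and 0.932 with Serpine2. The gene most like it was Pik3ca, which encodes the p110α catalytic subunit of the kinase family that GS9820 targets through p110δ, with r = 0.958, rho = 0.818 and r = 0.782 without vehicle tumours 1 and 3. Pik3ca had values of 7.47 and 7.58 in vehicle tumours 1 and 3 and at most 6.70 in the other 10 tumours, so the high r rests largely on that pair. Enox1 and Tcf4 followed at 0.950 and 0.944. Serpine2 was most like Pdgfb (r = 0.919), a growth factor for mesenchymal cells, then Cpz (r = 0.888) and Prss22 (r = 0.870). Serpinb2 was most like Cast (r = 0.908), which encodes the calpain inhibitor calpastatin, Hspa1l (r = 0.908) and Usp50 (r = 0.901).

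**Figure D4:**
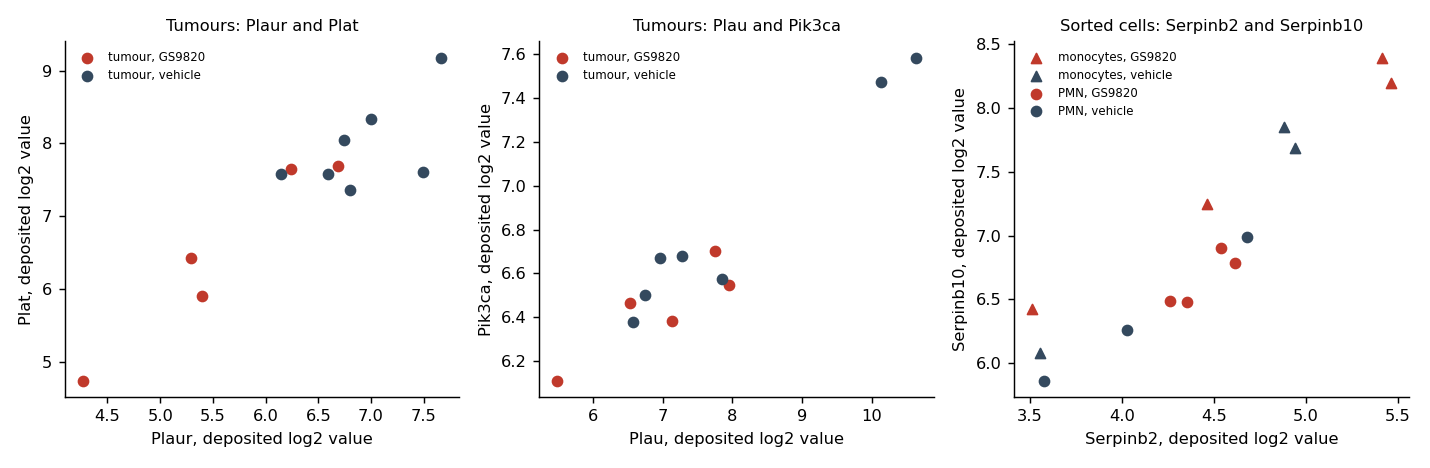
Deposited log2 values of pairs of genes across libraries, each point 1 library, for Plat against Plaur and Pik3ca against Plau in tumours and for Serpinb10 against Serpinb2 in sorted cells. Vehicle tumours 1 and 3 stand apart for Plau and Pik3ca, and Serpinb10 runs above Serpinb2 by 2.12 to 2.98 log2 units in every sorted-cell library.

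The comparison of monocytes with PMN asked in which of the splenic myeloid populations these genes were higher. Plaur was lower in monocytes than in PMN in both vehicle and GS9820 mice, and no other member passed the test in either. Called genes made up 60.1% of 13968 tested in vehicle mice, 27.2% as lower and 32.8% as higher in monocytes, and 69.6% in GS9820 mice, 32.1% as lower and 37.6% as higher. Thus 1 of 4 members called is a smaller share than that of all genes. The 2 comparisons share no library but use 1 shared estimate of spread.

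**Figure D5:**
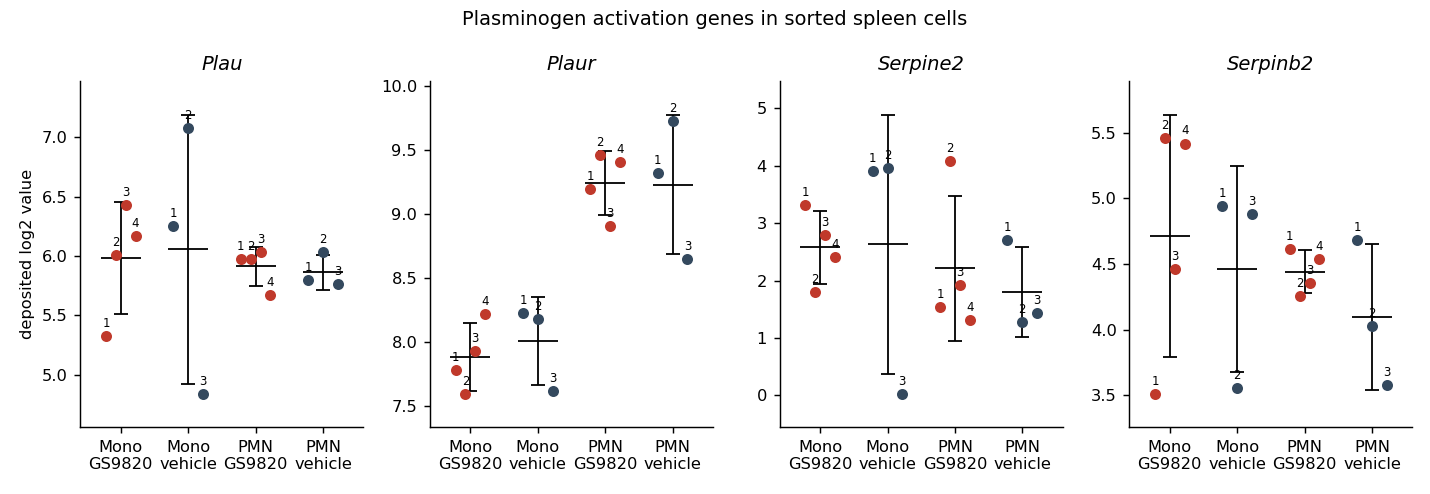
Deposited log2 values of the 4 members measured in sorted cells, in each library of monocytes (GS9820, vehicle) and PMN (GS9820, vehicle), with the mean and SD of each group. Plaur lies between 7.59 and 8.23 in monocytes and between 8.65 and 9.73 in PMN.

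In vehicle mice Plaur had values of 8.23, 8.18 and 7.61 in monocytes, against 9.32, 9.73 and 8.65 in PMN. All 3 monocyte libraries lay below all 3 PMN libraries, which 27.1% of genes also did. Plaur was lower in monocytes by -1.22 ± 0.26 log2 units (SE; interval -1.80 to -0.65; limma, adjusted p = 0.00157), 2.34-fold. In GS9820 mice its values were 7.78, 7.59, 7.93 and 8.22 in monocytes, against 9.20, 9.46, 8.91 and 9.40 in PMN, again without overlap, as for 32.1% of genes. The difference was -1.36 ± 0.23 (interval -1.86 to -0.87; limma, adjusted p = 0.000177), 2.57-fold. Both calls held in 14 of 14 fits that left out 1 library, within -1.52 to -0.97 in vehicle mice and -1.48 to -1.27 in GS9820 mice. Only fits without a library of the compared groups could move the difference, and the others changed the shared estimate of spread alone. In order of mean level the groups ran PMN of GS9820 mice (9.24 ± 0.25), PMN of vehicle mice (9.23 ± 0.55), monocytes of vehicle mice (8.01 ± 0.34) and monocytes of GS9820 mice (7.88 ± 0.27), and the neighbours within a cell type differed by less than their SDs.

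The labels of the sorts were checked against marker genes. Monocyte markers, 10 of 10 measured, averaged 8.06 to 9.75 in monocyte libraries and 5.98 to 6.88 in PMN libraries. Neutrophil markers, 13 of 13 measured, averaged 7.89 to 10.22 in monocyte libraries and 11.65 to 12.15 in PMN libraries. They were thus high in monocyte libraries too and varied between them, with 10.22, 9.99 and 7.89 in vehicle monocytes 1 to 3 and 9.67, 8.34, 9.49 and 8.77 in GS9820 monocytes 1 to 4. In vehicle monocytes 1 and 2 and GS9820 monocytes 1 and 3 the neutrophil mean exceeded the monocyte mean. B cell markers, 8 of 8 measured, averaged 1.85 to 3.28 in monocyte libraries and 3.93 to 4.83 in PMN libraries, and were called lower in monocytes for 8 of 8 genes in vehicle mice and 7 of 8 in GS9820 mice. T cell markers, 8 of 8 measured, averaged 0.94 to 3.84 in monocyte libraries and 2.67 to 4.31 in PMN libraries, with 1 and 4 of 8 called lower in vehicle and GS9820 mice. Of all genes, 27.2% were called lower in monocytes in vehicle mice and 32.1% in GS9820 mice. Erythroid markers, 9 of 10 measured, averaged 3.63 to 6.93 in monocyte libraries and 3.24 to 7.67 in PMN libraries. With GS9820, 8 of 8 tested erythroid genes differed below 0 in PMN (median -2.37) and in monocytes (median -0.91). None was called, with 7 in PMN and 0 in monocytes at an unadjusted p under 0.05 (limma), against 3.08% and 2.40% of all genes. The part of RNA from these other cells in the monocyte and PMN values was not tested.

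Plau, the ligand of the receptor, did not follow it. It had values of 6.26, 7.08 and 4.84 in vehicle monocytes against 5.80, 6.03 and 5.76 in vehicle PMN, and of 5.33, 6.01, 6.43 and 6.17 in GS9820 monocytes against 5.97, 5.97, 6.03 and 5.67 in GS9820 PMN. The monocyte libraries spread on both sides of the PMN libraries. Monocytes minus PMN gave 0.19 ± 0.43 in vehicle mice (interval -0.73 to 1.12; limma, adjusted p = 0.71) and 0.07 ± 0.37 in GS9820 mice (interval -0.73 to 0.87; adjusted p = 0.874). Vehicle monocyte library 3, the lowest for Plau and for the neutrophil marker mean, moved the vehicle value to 0.80 when left out (adjusted p = 0.0304), and leaving out vehicle monocyte library 2, the highest, moved it the other way to -0.32.

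Except in GS9820 monocytes, where Serpinb2 varied more (SD 0.92 against 0.64), Serpine2 varied most between libraries of one kind. Its values were 3.92, 3.96 and 0.03 in vehicle monocytes against 2.70, 1.27 and 1.43 in vehicle PMN, and 3.31, 1.80, 2.79 and 2.41 in GS9820 monocytes against 1.54, 4.08, 1.93 and 1.32 in GS9820 PMN. Single libraries stood far off in both cell types, namely vehicle monocyte library 3 and GS9820 PMN library 2. The differences were 0.83 ± 0.97 in vehicle mice (interval -1.26 to 2.93; limma, adjusted p = 0.473) and 0.36 ± 0.84 in GS9820 mice (interval -1.45 to 2.18; adjusted p = 0.711), with no call. The vehicle value was 2.14 without monocyte library 3 (adjusted p = 0.0235), 0.17 without monocyte library 2 and 1.69 with array quality weights (adjusted p = 0.0542).

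Serpinb2 had values of 4.94, 3.56 and 4.88 in vehicle monocytes against 4.68, 4.03 and 3.58 in vehicle PMN, and of 3.51, 5.46, 4.46 and 5.42 in GS9820 monocytes against 4.61, 4.26, 4.35 and 4.54 in GS9820 PMN. Monocyte libraries again spread around PMN libraries, and the differences were 0.37 ± 0.49 (interval -0.70 to 1.44; limma, adjusted p = 0.536) in vehicle mice and 0.27 ± 0.43 (interval -0.65 to 1.20; adjusted p = 0.584) in GS9820 mice. The gene most like Serpinb2 over the 14 sorted-cell libraries was the overlapping Serpinb10 (r = 0.928, rho = 0.925, and r = 0.941 without the farthest pair of libraries). Serpinb10 exceeded Serpinb2 by 2.52 to 2.98 log2 units in monocytes and by 2.12 to 2.36 in PMN. Since both genes share part of their sequence, the separate levels of Serpinb2 and Serpinb10 are uncertain. Next came Nfkb2 (r = 0.869), a subunit of NF-κB, and the interferon-induced Ifi47 (r = 0.850).

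For the other members, the nearest genes over the 14 sorted-cell libraries were Ezr, Cox17 and Rnf6 for Plaur (r = 0.977, 0.977 and 0.971), Arhgap1, Gbe1 and Psmd5 for Plau (r = 0.965, 0.894 and 0.877), and Serpinb1a and Tkt for Serpine2 (r = 0.953 and 0.952). These values describe 14 libraries that share 2 cell types, so a gene that differs between the cell types follows Plaur by that alone.

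Of the other pathway genes, 29 were tested in sorted cells. In vehicle monocytes 4 rose and 12 fell relative to PMN (median -0.37), and in GS9820 monocytes 9 rose and 12 fell (median -0.53), against medians of 0.07 over all genes in both. Over all genes 60.1% were called in vehicle mice, 32.8% as higher and 27.2% as lower. In GS9820 mice 69.6% were called, 37.6% as higher and 32.1% as lower. The pathway calls in either direction were thus near the share of all genes, and a shift of the pathway was not tested. Each of the 16 and 21 calls held in every fit without 1 library. Leaving out a library of a group not compared left the difference itself unchanged. Among the partners of uPAR, the formyl peptide receptor Fpr1 was lower in monocytes by -4.67 in vehicle mice (limma, adjusted p = 0.000147) and by -5.51 in GS9820 mice, and Fpr2 by -2.24 and -2.25. The clearance receptor Lrp1, which takes up urokinase-serpin complexes, was higher in monocytes by 2.43 in vehicle mice (adjusted p = 0.000396) and 2.98 in GS9820 mice. Sorl1, a sorting receptor that also binds urokinase complexes, was lower by -1.70 in vehicle mice and -1.94 in GS9820 mice.

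Among plasminogen receptors, S100a10 was higher in monocytes by 2.52 in vehicle mice and 3.04 in GS9820 mice, while its partner Anxa2 was lower by -0.89 and -0.80 and Plgrkt by -1.38 and -0.99. Of the crosslinker and substrate genes, the crosslinking factor XIII chain F13a1 was higher in monocytes by 6.22 in vehicle mice and 5.85 in GS9820 mice, and fibronectin, Fn1, by 5.47 and 5.09. The gelatinases Mmp9 and Mmp2 were lower by -4.96 and -2.46 in vehicle mice, and by -5.62 and -2.97 in GS9820 mice; F13a1 and Mmp9 are themselves among the marker genes. Of the proteases, F12 (coagulation factor XII) was lower in monocytes by -3.49 in vehicle mice and -4.99 in GS9820 mice. Hpn, Ctsb and Ctsl passed the test in GS9820 mice, at 2.14, 1.14 and 1.05, and whether this differs between GS9820 and vehicle mice is the interaction below, in which no gene was called. Neither of the 2 other inhibitors tested was called in either comparison.

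Clade B serpins related to Serpinb2 differed in both directions: of 8 tested, 1 rose and 3 fell in vehicle monocytes relative to PMN, and 1 rose and 4 fell in GS9820 monocytes. Of all genes, 60.1% were called in vehicle mice and 69.6% in GS9820 mice, so these counts are no larger a share. Serpinb8 was higher in monocytes by 1.79 in vehicle mice and 1.99 in GS9820 mice. Serpinb6b, Serpinb9 and Serpinb9b were lower by -2.56, -2.10 and -2.75 in vehicle mice, and by -2.95, -2.07 and -3.08 in GS9820 mice. In vehicle mice the Serpinb9b call held in only 1 of 14 fits without 1 library (adjusted p up to 0.227), and those of Serpinb6b and Serpinb9 were lost without vehicle monocyte library 2 or vehicle PMN library 1 or 3 (adjusted p up to 0.0958 and 0.118). In GS9820 mice the Serpinb9b call was lost under 1 of 3 other scalings (adjusted p = 0.114). The Ly6 relative of uPAR Ly6e was higher in monocytes by 1.26 in vehicle mice and 1.84 in GS9820 mice. Serpinb6b, Serpinb9 and Serpinb9b have near copies in their gene clusters, so reads may have been split between them. Serpinb10 differed by 0.83 in vehicle mice (adjusted p = 0.188) and 0.90 in GS9820 mice (adjusted p = 0.0945), without a call.

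With GS9820 no member was called in the sorted cells themselves. No gene of 13968 was called in PMN (limma; 430 at an unadjusted p under 0.05, 3.08%), in monocytes (335, 2.40%) or for the difference of the effects (269, 1.93%). In PMN the GS9820 minus vehicle differences were 0.05 for Plau (interval -0.81 to 0.91), 0.01 for Plaur (-0.52 to 0.55), 0.42 for Serpine2 (-1.54 to 2.37) and 0.35 for Serpinb2 (-0.65 to 1.35). In monocytes they were -0.08 for Plau (-0.94 to 0.79), -0.13 for Plaur (-0.66 to 0.41), -0.06 for Serpine2 (-2.02 to 1.90) and 0.25 for Serpinb2 (-0.75 to 1.25). The effects in monocytes minus those in PMN were -0.12 for Plau, -0.14 for Plaur, -0.47 for Serpine2 and -0.10 for Serpinb2, all with an adjusted p of 1. In tumours the difference of Plaur, -1.34 and not called, had an interval of -2.17 to -0.52. That interval overlaps the one in monocytes and meets the lower end of the one in PMN. For Serpinb2 the tumour interval of -3.48 to -1.48 lay below both sorted-cell intervals, but it rests on very low tumour values. The intervals of Serpine2 were wide in both cell types. The tumour and sorted-cell differences come from separate tables and tissues, and the difference between them was not tested.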

How the data were processed

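Per the labels, tumour libraries were made from total RNA with a stranded kit after removal of ribosomal RNA, and sorted-cell libraries with a TruSeq or a NuGEN kit, which for each library is not given. Per the submitters' processing notes, TopHat2, STAR and limma were used with mm10; versions and roles are not given in the sources used here. The authors deposited log2 values named log2 RPKM. With the log2 reversed they sum to 1552393 to 1552449 per tumour and 1429080 to 1430326 per sorted-cell library, and, times exonic kilobases of the 16039 and 13886 genes with an annotated length, to 5950819 to 6504746 and 5267108 to 6331269, more than RPKM allow, so they are called deposited log2 values.

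From these values, genes with at least 0 in 5 tumours or 3 sorted-cell libraries were kept (16296 and 13968), and limma 3.58.1 in R 4.3.3 fitted group means with a mean trend, tumours and sorted cells apart. The 14 sorted-cell libraries shared 1 fit. The fits were tested on simulated data. Figures and sequence searches used Python 3.11.15 and matplotlib 3.10.9. The members and gene lists were chosen with earlier results of these data known. Named were the 5 members, at most 4 called genes per list, or 2 by lowest p where none was called, and the 3 genes of highest r per member with a mean of at least 1. Predicted or unnamed genes were left out of the last. Some genes are not reported here. Outside this rule, Serpinb10 in sorted cells, S100a10, Plgrkt, Vldlr, Fpr2 and Vtn in tumours, and members of families were named after their values were seen. Replicate numbers paired vehicle monocytes and PMN, whose deviations correlated at 0.462, 0.294 and 0.105 for numbers 1 to 3. In GS9820 mice the values were -0.132, -0.215, 0.268 and 0.447 for numbers 1 to 4, so numbers 3 and 4 alone went together. This pairing is read from the data, and the main fit used none in either treatment. Alternatives were no or a stricter filter (at least 2), log2 of the value plus 1, median centring, quantile normalization, eBayes without trend, array weights, each library left out, a replicate block, smaller fits and, chosen after seeing the data, leaving out 3 tumours.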

Additional observations from a re-analysis of the deposited data

Results flagged for a closer look

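Plau in PMN of GS9820 mice had 1 library far from its group: library 4 stood at 5.67, against 5.97 to 6.03 in the other 3. In all, 18 groups of 4 to 7 libraries were examined in this way, and chance marks about 1 in 20.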

How the results depend on the processing

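Under no filter, log2 of the value plus 1, median centring, quantile normalization, eBayes without trend and fits of 1 cell type or treatment alone, each count of called genes or members stayed within 1.5 times its value and no call of a member was lost. In tumours the stricter filter removed Serpinb2 and left 0 members called. Array quality weights called 2765 genes, against 359, and 3 members, with Plaur at -1.18 and Plat at -1.34. With a replicate block 166 genes and 0 members were called, Serpinb2 differing by -2.21 (adjusted p = 0.0819); tumours with 1 number did not deviate together (-0.18 to 0.27), so the number alone is shared. Without the 3 tumours rich in hepatocyte transcripts 223 genes were called. The block changed no other call of a member. Array weights called 208 genes for GS9820 in monocytes, against 0, and turned the uncalled values of Plaur in PMN to -0.045, of Serpine2 in PMN to -0.10 and of Serpinb2 in monocytes to -0.23; the block turned Plaur in PMN to -0.071 and Serpine2 in monocytes to 0.12. The causes were not tested.

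Leaving out 1 tumour gave 0 genes called (without GS9820 tumour 4) to 1690 (without vehicle tumour 5), 0 to 1 members called, -2.68 to -2.30 for Serpinb2 and -0.26 to 0.49 for Serpine2. Leaving out 1 sorted-cell library gave 1 to 3 members called between vehicle monocytes and PMN, with -0.32 to 0.80 for Plau and 0.17 to 2.14 for Serpine2, and -0.078 to 0.29 for Plau in GS9820 mice. Uncalled treatment values crossed 0 in the same fits: in PMN Plau gave -0.0029 to 0.13, Plaur -0.28 to 0.26 and Serpine2 -0.20 to 0.86; in monocytes Plau gave -0.69 to 0.44, Serpine2 -1.36 to 0.61 and Serpinb2 -0.20 to 0.65. For the effect in monocytes minus that in PMN, Plau gave -0.73 to 0.39, Plaur -0.39 to 0.15, Serpine2 -1.77 to 0.19 and Serpinb2 -0.55 to 0.31. Depth is unknown, so no counting error can be given, and the low tumour values of Serpinb2 carry the least certain size.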
